A study of Homo sapiens with 6 samples.

Results

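The 10 genes examined encode transcription factors of the AP-1 and EGR families: FOS, FOSB, FOSL1, FOSL2, JUN, JUNB, JUND, EGR1, EGR2 and EGR3. They were chosen by name, and all 10 were found among the 20811 genes of the expression table. The table compares the human intrahepatic cholangiocarcinoma line HuCCT1 transduced with a lentivirus for human THY1, the gene of CD90, labelled THY1-CMV-GFP (HuCCT1/CD90+), with HuCCT1 given the blank virus Lenti-CMV-GFP-2A-Puro-Blank (HuCCT1/CD90−). Both viruses carry CMV and GFP in their names and were used at a multiplicity of infection of 40, both lines grew in RPMI with 10% fetal bovine serum, and each line has 3 libraries. Each line is 1 transduced population, and whether it is a clone or a pool is not given in the sources used here. Line and virus therefore cannot be told apart, and nothing says that the 3 libraries of a line are separate cultures, so p-values measure the spread between these libraries.

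AP-1 is a dimer of basic leucine zipper proteins. FOS family proteins bind DNA only with a partner such as a JUN protein, while JUN proteins can also pair with each other. EGR proteins are zinc finger factors that bind GC-rich sites, and the NAB corepressors bind EGR proteins and hold their activity down. FOS, FOSB, JUN, JUNB, EGR1, EGR2 and EGR3 are classic immediate early genes: their transcripts are short-lived and appear within minutes of growth factor, serum or stress signals, through MAP kinases, ETS factors and serum response factor. FOSL1 and FOSL2 usually follow later, and JUND is the most evenly expressed JUN gene. In epithelial tumours AP-1 is best known for its part in migration, matrix breakdown and proliferation.

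Gene levels are given as RPM, the reads of a gene scaled to the same total of gene reads in each library, from 1 amplicon per gene. In these bulk samples fewer expressing cells and less RNA per cell cannot be told apart. Levels of different genes are not compared, since each amplicon has its own efficiency. The libraries held 8587634 to 10551516 reads on genes, so that 3 reads, the detection floor used here, were 0.284 to 0.349 RPM. THY1 had at most 1 read in each HuCCT1/CD90− library and 435 to 680 reads in the HuCCT1/CD90+ libraries. Of the cholangiocyte markers, KRT7 had at least 3150 RPM and KRT19 at least 3042 RPM in every library, and the summed level of the 4 markers was 6437 to 7304 RPM in HuCCT1/CD90−, against 7525 to 8478 RPM in HuCCT1/CD90+. Markers of other cell types are given beside these, without a comparison of levels between genes. The 4 fibroblast markers summed to 35.8 to 57.5 RPM in HuCCT1/CD90−, against 19.4 to 24.1 RPM in HuCCT1/CD90+, the 3 endothelial markers to 14.5 to 23.2 and 0.643 to 1.51 RPM, and the 4 hepatocyte markers to at most 4.28 and 0.465 RPM. DCN, LUM, COL1A2, CDH5 and APOA1 fell among these lists (limma), although the calls of LUM, DCN and APOA1 were lost when single libraries were left out and those of COL1A2 and DCN (adjusted p = 0.0859) in the replicate block. In the same lists COL1A1 (13.5 against 14.2 RPM), PECAM1 (2.18 against 0.527 RPM) and VWF (no reads against 1 to 4 reads) did not pass with limma, although edgeR and DESeq2 called PECAM1 lower, ALB and TTR had at most 1 read in any library, and PTPRC and CD3E had at most 3 reads. CD68, the leukocyte gene above the floor, rose from 50.8 ± 4.50 to 92.2 ± 8.39 RPM (adjusted p = 0.0089, limma), against the direction of these falls. The part of these markers in the results below was not tested.

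The 3 members that passed limma's test at an adjusted p of 0.05, beside 18.9% of all genes, were EGR1, EGR2 and JUN. All were lower in HuCCT1/CD90+, while edgeR also called FOSL1 and JUNB higher and DESeq2 called FOSL1 higher and did not call JUN. The promoters of EGR1, EGR2 and JUN are shown because they carry known control elements of immediate early genes. RefSeq windows from 250 bases before to 50 bases after the start were found for 8 of the 10 members, all but FOSL1 and EGR3, with 3 windows for EGR2. For EGR2 the window with a CArG box was picked, and the others hold none. The 140 bases before the RefSeq start are printed from 5′ to 3′ on the strand of the gene (GRCh38.p14), in lower case with motif matches in capitals: the EGR1 stretch is chr5:138465339-138465478 on the plus strand, the EGR2 stretch chr10:62816367-62816506 on the minus strand and the JUN stretch chr1:58784048-58784187 on the minus strand.
EGR1: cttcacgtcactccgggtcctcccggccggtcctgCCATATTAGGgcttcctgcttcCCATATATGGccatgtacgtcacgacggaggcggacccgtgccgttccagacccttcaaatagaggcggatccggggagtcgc
EGR2: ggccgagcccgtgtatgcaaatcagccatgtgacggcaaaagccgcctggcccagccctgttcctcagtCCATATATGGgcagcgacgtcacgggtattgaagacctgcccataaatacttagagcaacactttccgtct
JUN: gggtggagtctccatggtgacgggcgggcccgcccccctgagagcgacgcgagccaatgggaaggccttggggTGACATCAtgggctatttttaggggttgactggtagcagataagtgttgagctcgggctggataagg
The capitals in EGR1 and EGR2 are CArG boxes, the sequence that serum response factor binds, and those in JUN are TGACATCA, the AP-1-like element of this promoter. Of 35116 RefSeq windows of the same length, 1.29% held a CArG box and 2.61% held TGACATCA. Of the 8 members with a window, EGR1 and EGR2 held a CArG box in it and JUN held TGACATCA. Bases outside the windows were not searched, so a member without a match here can hold the motif elsewhere. The EGR1 stretch has CArG boxes from -105 to -96 and from -83 to -74 relative to the start, and the EGR2 stretch has a CArG box from -71 to -62. TGACGTCA, the cAMP response element, was found in the JUND window (1.85% of all windows), TGACTCA, the classic AP-1 site, in the FOSL2 window (4.95%), and GCGNGGGCG, an EGR binding sequence, in the EGR1 window and in another EGR2 window than the one printed (9.43%). Each motif was searched on both strands, and none of these motifs overlapped another within a window of a member. A match of letters describes the window and was not tested for binding.

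EGR1 encodes a zinc finger activator that links growth signals to growth factor and matrix genes. It lies on chromosome 5 of GRCh38 from 138465490 to 138469315. The HuCCT1/CD90− libraries had 23.4, 23.3 and 20.5 RPM and the HuCCT1/CD90+ libraries 7.83, 11.4 and 8.68 RPM. All 3 HuCCT1/CD90+ libraries were lower than any HuCCT1/CD90− library, and the spread within each line was small beside the gap. The mean went from 22.4 ± 1.67 to 9.31 ± 1.87 RPM (SD, n = 3 each), which is 2.41-fold lower. On the log2(RPM + 1) scale the fold change came to -1.20, with a standard error of 0.15 (95% confidence interval from -1.60 to -0.79, adjusted p = 0.011, limma over all genes). With HuCCT1/CD90+ replicate 3 left out the adjusted p was 0.051, and with any other library left out it stayed under the threshold.

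EGR2, the paralogue best known for control of myelination and of T cell tolerance, was close to the floor in HuCCT1/CD90+. It lies on chromosome 10 from 62811996 to 62919900. It had 1.90, 3.96 and 3.69 RPM in HuCCT1/CD90−, from 20, 37 and 38 reads, and 0, 0.233 and 0.760 RPM in HuCCT1/CD90+, from 0, 2 and 7 reads. The lines did not overlap, and HuCCT1/CD90+ replicate 3 alone was above 3 reads in its line. The mean fell from 3.18 ± 1.12 to 0.331 ± 0.389 RPM (SD, n = 3 each), 9.61-fold lower. Over the summed reads, 95 against 9, exact Poisson 95% intervals were 2.55 to 3.85 RPM in HuCCT1/CD90−, against 0.152 to 0.630 RPM in HuCCT1/CD90+, which cover counting error only. The log2 fold change came to -1.65, with a standard error of 0.32 (adjusted p = 0.034, limma), and the offset of 1 RPM shrinks it: edgeR on recovered reads gave -3.20. With an offset of 0.1 RPM the fold change was -3.35 and the adjusted p 0.075. The call held when HuCCT1/CD90− replicate 1 was left out (adjusted p = 0.039) and was lost when any of HuCCT1/CD90− replicates 2 and 3 and HuCCT1/CD90+ replicates 1, 2 and 3 was left out, with adjusted p-values up to 0.11.

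EGR3 was at or under 3 reads in all 6 libraries, from 0 to 0.321 RPM in HuCCT1/CD90−, against 0.109 to 0.349 RPM in HuCCT1/CD90+, so a difference was not detectable at this depth, and no fold or direction is read for it. EGR4, the remaining EGR gene, was also at most 2 reads in any library. The EGR family thus had 2 measurable genes, and both were lower (limma), beside 13.8% of all genes above the floor. For EGR2 this call was lost when single libraries were left out, as given above.

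Of the JUN family, JUN fell. It encodes c-Jun, the AP-1 subunit that JNK kinases activate. It lies on chromosome 1 from 58780788 to 58784327. It had 1.99, 1.28 and 1.75 RPM in HuCCT1/CD90−, from 21, 12 and 18 reads, and 0.643, 0.466 and 0.760 RPM in HuCCT1/CD90+, from 6, 4 and 7 reads. Every HuCCT1/CD90+ library lay under every HuCCT1/CD90− library, but all 6 values rest on few reads. The mean was 1.67 ± 0.359 RPM in HuCCT1/CD90−, against 0.623 ± 0.148 RPM in HuCCT1/CD90+ (SD, n = 3 each), 2.69-fold lower. The exact Poisson 95% intervals of the summed 51 and 17 reads were 1.26 to 2.22 and 0.365 to 1.00 RPM. The log2 fold change came to -0.72, with a standard error of 0.13 (adjusted p = 0.028, limma). The adjusted p was 0.052 with quantile normalization and 0.078 with DESeq2 on recovered reads, whereas edgeR gave 0.013. The call held without HuCCT1/CD90− replicate 2 (adjusted p = 0.029) and was lost without HuCCT1/CD90− replicate 1 or 3 or any HuCCT1/CD90+ replicate, with adjusted p-values up to 0.097. Among its 50 nearest neighbours on chromosome 1 that reached a mean of 10 RPM the median log2 fold change was -0.27. With this median subtracted, the fold change of JUN was -0.45.

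JUNB, which dimerises like JUN but often opposes it in growth control, lay in the other direction without passing the test. It had 72.3, 136 and 110 RPM in HuCCT1/CD90−, against 120, 168 and 152 RPM in HuCCT1/CD90+. HuCCT1/CD90− replicate 2 lay above HuCCT1/CD90+ replicate 1, so the lines overlapped. Between libraries with the same replicate number the HuCCT1/CD90+ value was the higher in 3 of 3, by 0.72, 0.29 and 0.47 on the log2 scale. The log2 fold change was 0.49 (95% confidence interval from -0.27 to 1.26, adjusted p = 0.35, limma), or 0.24 without HuCCT1/CD90− replicate 1. On recovered reads the adjusted p was 0.0495 with edgeR and 0.052 with DESeq2.

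JUND, the JUN protein often linked to slowed growth, had 71.0, 88.0 and 72.1 RPM in HuCCT1/CD90−, against 60.7, 71.8 and 65.2 RPM in HuCCT1/CD90+. It did not pass the test (log2 fold change -0.22, 95% confidence interval from -0.52 to 0.09, adjusted p = 0.30, limma). Without HuCCT1/CD90− replicate 2 the log2 fold change of JUND was -0.12. It was lower in 3 of 3 replicate numbers.

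**Figure D1:**
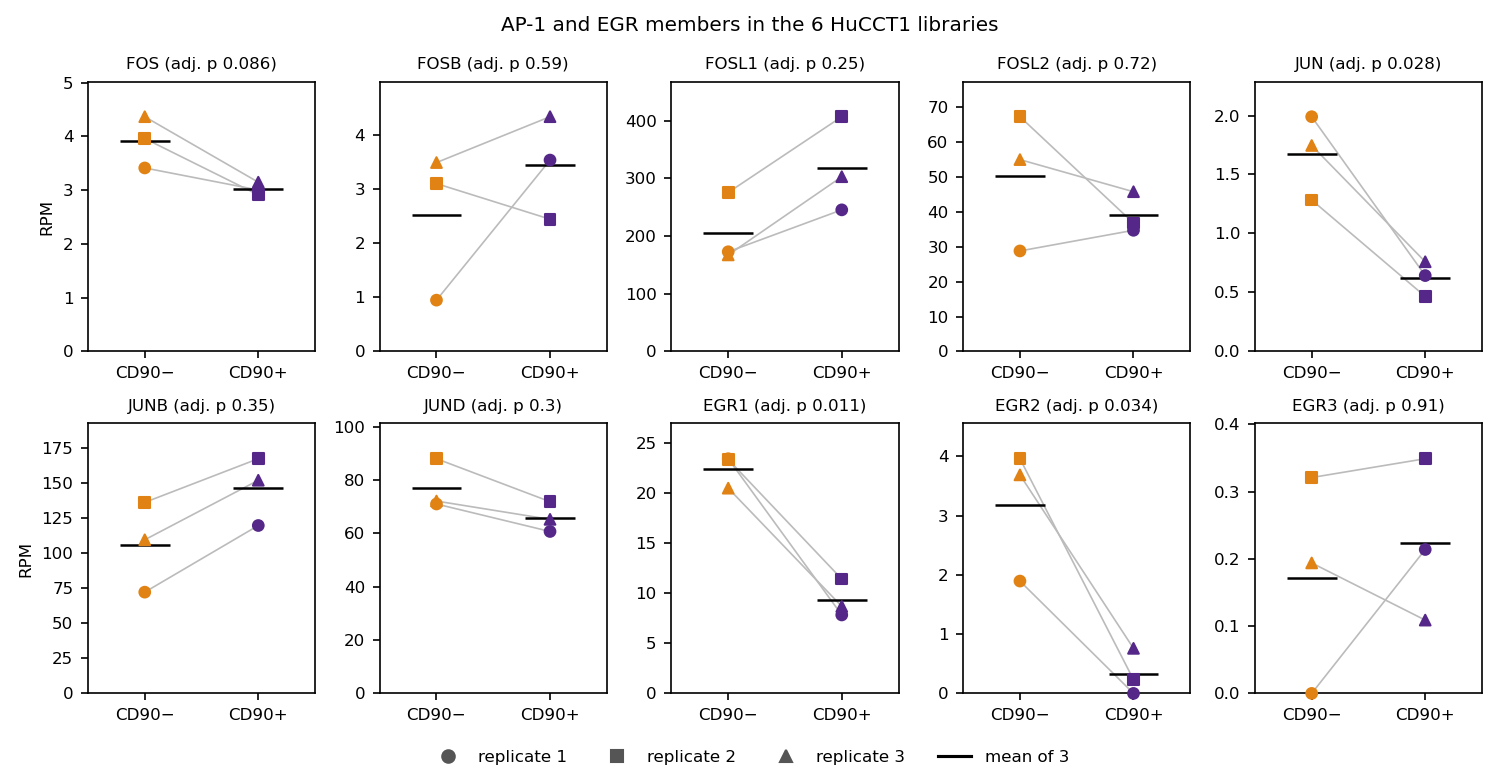
RPM of the 10 members (vertical axes, each from 0) in the HuCCT1/CD90− and HuCCT1/CD90+ libraries, with 1 symbol per replicate number, grey lines between equal numbers and a black bar at the mean of 3; panel titles give the adjusted p from limma. EGR1, EGR2 and JUN lay lower in all 3 HuCCT1/CD90+ libraries, and FOSL1 and JUNB lay higher along each grey line with overlapping lines.

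No FOS family gene passed limma's test at an adjusted p of 0.05. At an unadjusted p of 0.05, 1 of the 4 genes passed (FOS, lower), beside 31.1% of all genes (15.3% higher and 15.9% lower), and edgeR and DESeq2 on recovered reads each called 1 gene at an adjusted p of 0.05 (FOSL1, higher), beside 44.4% (22.2% higher) and 31.3% (16.1% higher) of the genes they tested. FOSL1 encodes FRA-1, the FOS protein most often raised in invasive carcinoma cells, and lies on chromosome 11 from 65892049 to 65900573. It had 173, 275 and 167 RPM in HuCCT1/CD90−, and 245, 407 and 303 RPM in HuCCT1/CD90+, from 1724 to 3493 reads a library. Replicate 2 was the highest of its line in both lines, and HuCCT1/CD90− replicate 2 exceeded HuCCT1/CD90+ replicate 1. Within each replicate number HuCCT1/CD90+ was higher, by 0.50, 0.56 and 0.85 on the log2 scale. The mean was 205 ± 61.0 RPM in HuCCT1/CD90−, against 318 ± 81.8 RPM in HuCCT1/CD90+ (SD over 3 libraries each), a ratio of 1.55.

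The log2 fold change of FOSL1 was 0.64, with a standard error of 0.30 (95% confidence interval from -0.15 to 1.43, adjusted p = 0.25, limma), so the difference was within the spread of the libraries by this test. Its call depended on the test. The adjusted p was 0.047 when limma was limited to 12062 genes whose mean reached 1 RPM (41.7% of them passed, 20.6% higher), 0.014 with edgeR and 0.0093 with DESeq2. In the fit with replicate number as a block it was 0.072. Its 50 chromosome 11 neighbours had a median of 0.25 on the log2 scale, and subtracting it left 0.39 for FOSL1.

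FOS itself, the founding member of the family, was weakly expressed in both lines. It had 3.41, 3.96 and 4.37 RPM in HuCCT1/CD90−, against 3.00, 2.91 and 3.15 RPM in HuCCT1/CD90+, from 25 to 45 reads a library. The lines did not overlap, but the gap between them was narrow. The log2 fold change came to -0.28, with a standard error of 0.08 (95% confidence interval from -0.50 to -0.07, adjusted p = 0.086, limma). The adjusted p was 0.031 with quantile normalization, 0.024 with median centring and 0.032 without HuCCT1/CD90− replicate 1, but 0.30 with edgeR and 0.49 with DESeq2 on recovered reads. Exact Poisson 95% intervals of the summed reads, 3.23 to 4.68 RPM in HuCCT1/CD90−, against 2.40 to 3.75 RPM in HuCCT1/CD90+, overlapped.

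FOSB, a close paralogue of FOS with a splice form that accumulates in neurons, had 0.948, 3.10 and 3.49 RPM in HuCCT1/CD90−, against 3.54, 2.44 and 4.34 RPM in HuCCT1/CD90+. HuCCT1/CD90− replicate 1 was far under the other 5 libraries. The log2 fold change of 0.41 (adjusted p = 0.59, limma) was 0.03 without that library. FOSL2, which encodes FRA-2, had 28.8, 67.3 and 55 RPM in HuCCT1/CD90−, against 34.7, 36.8 and 45.8 RPM in HuCCT1/CD90+. Its HuCCT1/CD90− libraries lay on both sides of the HuCCT1/CD90+ range, and its log2 fold change of -0.28 (adjusted p = 0.72, limma) moved to -0.63 without HuCCT1/CD90− replicate 1 and to -0.04 without HuCCT1/CD90− replicate 2.

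Over the 10 members, 3 were lower and none higher by limma at an adjusted p of 0.05. Over all 20811 genes, 18.9% passed this test, 9.41% higher and 9.52% lower. At an unadjusted p of 0.05, limma found 4 members lower (EGR1, EGR2, JUN and FOS) and none higher, beside 15.9% and 15.3% of all genes. At an adjusted p of 0.05, edgeR called 2 members higher (FOSL1 and JUNB) and 3 lower, beside 44.4% of all genes it tested (22.2% higher), and DESeq2 called 1 higher (FOSL1) and 2 lower, beside 31.3% (16.1% higher). At the thresholds that the methods of the study name, a fold change of 1.5 and an unadjusted p of 0.05, the same 3 members were lower, and 20.1% of all genes passed (9.98% lower). In the fit with replicate number as a block, these 3 members were called again, with adjusted p-values of 0.048 for EGR1, 0.043 for EGR2 and 0.041 for JUN, and 13.1% of all genes passed (6.72% higher). The median log2 fold change of the members was -0.25, beside 0.00 over all genes. The libraries of the lines did not overlap for 4 members (FOS, JUN, EGR1 and EGR2) each lower in HuCCT1/CD90+, and for 35.0% of all genes (17.7% lower). The direction was the same in all 3 replicate numbers for 7 members and for 46.6% of all genes (23.2% higher).

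**Figure D2:**
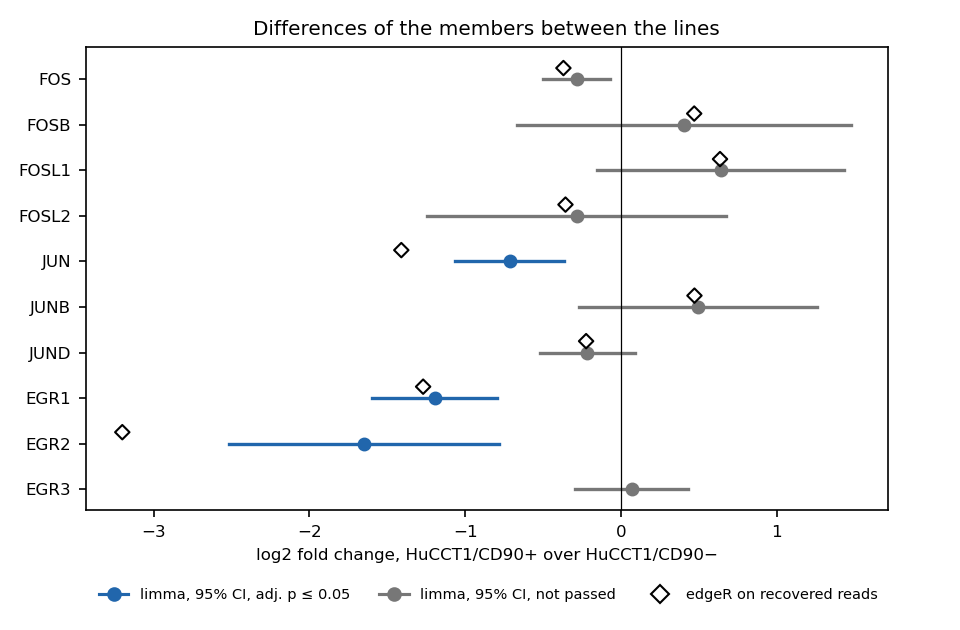
Log2 fold change of each member between HuCCT1/CD90+ and HuCCT1/CD90− (horizontal axis), as points with 95% confidence intervals from limma on log2(RPM + 1), and as diamonds from edgeR on recovered reads, which did not test EGR3. The intervals of FOS, JUN, EGR1 and EGR2 lie under 0, and of these JUN, EGR1 and EGR2 passed at an adjusted p of 0.05; EGR2 and JUN, with few reads, lie farther from 0 in edgeR.

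The members also varied between libraries of the same line. JUNB, JUND and FOSL1 were highest in replicate 2 of both lines, as was EGR3 with its few reads. HuCCT1/CD90− replicate 1 was the lowest library of its line for 7 of the 10 members (FOS, FOSB, FOSL2, JUNB, JUND, EGR2 and EGR3). The share of all genes lowest in this library was not computed, so whether this count is unusual is not known. In it FOSB, FOSL2, JUNB and EGR2 were 0.49 to 0.76 under the mean of their line on the log2 scale, whereas JUN and EGR1 were 0.17 and 0.06 above it. Of the 14098 genes above the floor in some library, 18.1% were highest in replicate 2 of both lines. The highest library was 1.14 times the lowest for EGR1 in HuCCT1/CD90− and 3.68 times for FOSB, the extremes among members with reads in each HuCCT1/CD90− library. None of the 7 heat shock and handling genes, which rise with cell stress, passed limma's test between the lines. At an unadjusted p of 0.05, 1 of them was higher, edgeR and DESeq2 each called 3 higher, and limma with the replicate block called 1 higher (HSPA8). Of all genes, 15.3% were higher at the unadjusted threshold, 22.2% with edgeR, 16.1% with DESeq2 and 6.72% in the replicate block. Their summed level was 2466 to 3450 RPM in HuCCT1/CD90−, against 2997 to 3763 RPM in HuCCT1/CD90+, and their part in the differences of the members was not tested.

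**Figure D3:**
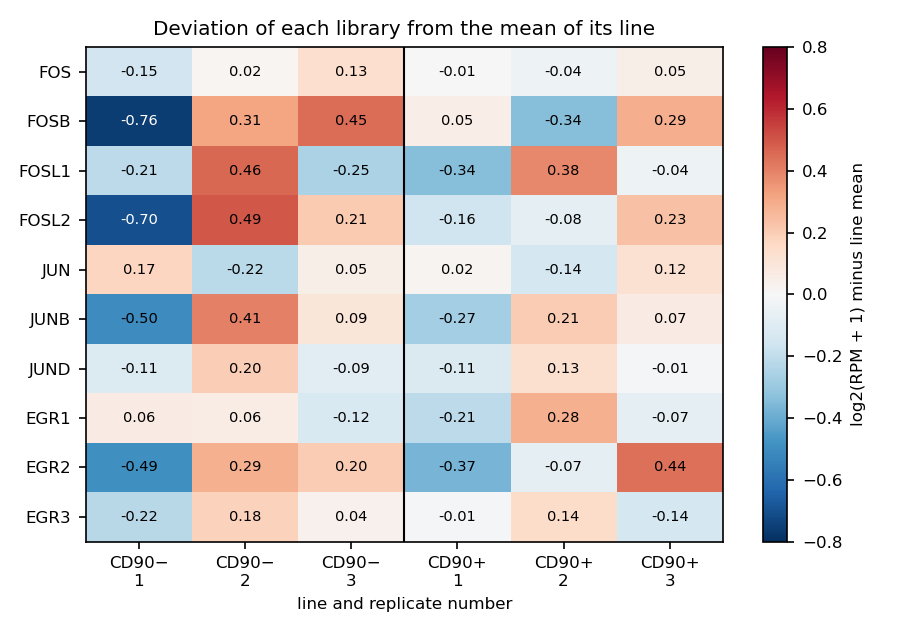
Deviation of each library from the mean of its line on the log2(RPM + 1) scale for the 10 members (rows) in the 6 libraries (columns); red is above and blue below the mean of the line. FOSL1, JUNB and JUND are above the mean in replicate 2 of both lines, and of the 7 members lowest in HuCCT1/CD90− replicate 1, FOSB, FOSL2, JUNB and EGR2 lie farthest under the mean.

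The genes around AP-1 and EGR were then counted in 6 lists of 88 genes. Of these, 12 were higher and 16 lower in HuCCT1/CD90+ (limma), which is 31.8%, beside 18.9% of all genes. Of the 78 list genes above the floor 35.9% passed, beside 27.4% of all 14098 genes above it (13.5% higher and 13.8% lower). In the fit with the replicate block 14 were higher and 9 lower, beside 13.1% of all genes.

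Both NAB corepressors were also lower in HuCCT1/CD90+ (limma), beside 9.52% of all genes, and a link to EGR1 and EGR2 was not tested. NAB1 had 50.1, 68.9 and 66.4 RPM in HuCCT1/CD90−, against 32.5, 26.7 and 29.9 RPM in HuCCT1/CD90+ (-1.02 on the log2 scale, standard error 0.15, adjusted p = 0.017, limma). NAB2, itself a gene that EGR proteins induce, had 7.87, 12.2 and 10.3 RPM in HuCCT1/CD90−, against 4.50, 5.82 and 4.12 RPM in HuCCT1/CD90+ (-0.93 on the log2 scale with adjusted p = 0.041, limma). For both genes the lines did not overlap. With the replicate block the adjusted p was 0.096 for NAB1 and 0.057 for NAB2, and both calls held when HuCCT1/CD90− replicate 1 was left out but not when any other library was.

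Among 12 other basic leucine zipper partners, 2 were higher and none lower (limma), beside 9.41% and 9.52% of all genes. At an unadjusted p of 0.05, 4 were higher and 1 lower, beside 15.3% and 15.9% of all genes. Of those it tested, edgeR called 3 higher and none lower (44.4% of all genes called), and DESeq2 3 higher and 1 lower (31.3%). MAFK, a small MAF protein that pairs with NRF2 and with BACH proteins, rose from 48.2 ± 3.00 to 117 ± 3.18 RPM (SD, n = 3 each), by 1.26 on the log2 scale (adjusted p = 0.00075, limma). BATF, which pairs with JUN proteins and is known mainly from lymphocytes, rose from 35.8 ± 6.81 to 80.3 ± 5.69 RPM (1.16 on the log2 scale with adjusted p = 0.015), a call lost without HuCCT1/CD90+ replicate 2 or 3 (adjusted p up to 0.064). The median of this list was 0.08 on the log2 scale.

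Of 19 upstream kinases and promoter-binding factors, 1 was higher and 3 lower (limma), with a median log2 fold change of -0.11. Both edgeR and DESeq2 called 4 higher (CREB1, MAP2K1, MKL1 and MKL2) and 3 lower, and the replicate block 1 higher and 2 lower (ELK4 and MAP2K4). Of all genes, 18.9% passed with limma, 44.4% with edgeR, 31.3% with DESeq2 and 13.1% in the replicate block. MAP2K1, which encodes the ERK kinase MEK1, rose from 107 ± 4.58 to 190 ± 16.7 RPM (0.81 on the log2 scale with adjusted p = 0.0052, limma). ELK4, an ETS partner of serum response factor, fell from 107 ± 17.3 to 58.0 ± 4.25 RPM (-0.87 on the log2 scale with adjusted p = 0.021), and RPS6KA5, which encodes the chromatin kinase MSK1, fell from 28.0 ± 5.25 to 15.5 ± 1.10 RPM (adjusted p = 0.034 without and 0.13 with the block). These falls were called without HuCCT1/CD90− replicate 1 but not without any other library (adjusted p up to 0.083 for ELK4 and 0.115 for RPS6KA5). MAPK7, the ERK5 gene, was the other that fell (adjusted p = 0.0637 in the replicate block). SRF, the factor that binds CArG boxes, had 43.1 to 64.0 RPM in HuCCT1/CD90−, against 37.2 to 48.3 RPM in HuCCT1/CD90+ (-0.20 on the log2 scale with adjusted p = 0.59).

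Other immediate early genes went in both directions, with 4 of 28 higher and 4 lower (limma; 5 and 2 in the blocked fit) and a median log2 fold change of 0.31. These 28.6% stand beside 18.9% of all genes and 27.4% of those above the floor, or 13.1% of all genes in the blocked fit. Both edgeR and DESeq2 called 7 higher and 4 lower, beside 44.4% and 31.3% of the genes they tested. HBEGF, an EGF receptor ligand, rose from 18.7 ± 3.33 to 143 ± 12.8 RPM (2.88 on the log2 scale with adjusted p = 0.0012, limma), with each HuCCT1/CD90+ library above 134 RPM and each HuCCT1/CD90− library under 22.3 RPM. KLF4, a zinc finger factor of differentiating epithelia, rose from 1.31 ± 0.811 to 11.3 ± 1.76 RPM (2.47 on the log2 scale with adjusted p = 0.013). Its adjusted p was 0.056 with the replicate block and up to 0.059 without HuCCT1/CD90+ replicate 1 or 3. CTGF, a matricellular gene, fell from 47.7 ± 5.48 to 21.0 ± 5.61 RPM (-1.17 on the log2 scale with adjusted p = 0.027, or 0.090 with the block), a call that held without HuCCT1/CD90+ replicate 1 but not without any other library. KLF2 fell from 23.7 ± 1.13 to 11.7 ± 1.33 RPM (-0.96 on the log2 scale with adjusted p = 0.0049). KLF6 and CYR61 were the other genes of this list that rose, and IER5 and GEM the others that fell (GEM with an adjusted p of 0.0685 in the replicate block).

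Genes that AP-1 is known to induce also split, with 3 of 17 higher and 6 lower (limma), and a median log2 fold change of -0.13, or -0.79 over the 14 genes above the floor. In the replicate block 3 were higher and 4 lower, since IL11 (adjusted p = 0.0787) and MMP3 (0.0585) lost their calls. MMP3 was close to the floor, with 4, 2 and 3 reads in HuCCT1/CD90− and 0 in each HuCCT1/CD90+ library. It was not tested by edgeR and not called by DESeq2 (adjusted p = 0.114). Of all genes 18.9% passed with limma, 27.4% of those above the floor, and 13.1% of all in the block. Both edgeR and DESeq2 called 5 of this list higher and 7 lower, beside 44.4% and 31.3% of the genes they tested. MMP1, the interstitial collagenase whose promoter holds a classic AP-1 site, fell from 146 ± 41.3 to 6.89 ± 1.605 RPM (-4.20 on the log2 scale, standard error 0.29, adjusted p = 0.0023, limma), with 98.9 to 174 RPM in HuCCT1/CD90−, against 5.59 to 8.68 RPM in HuCCT1/CD90+. SPP1, the osteopontin gene, had the largest fall of this list (-4.41 on the log2 scale with adjusted p = 0.0034). CD44, a hyaluronan receptor, rose from 1.67 ± 0.505 to 14.7 ± 0.457 RPM (2.57 on the log2 scale with adjusted p = 0.0018).

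Of 10 genes that EGR1 is known to regulate, 2 were higher and 2 lower (limma; 2 and 1 in the replicate block), beside 18.9% of all genes with limma and 13.1% in the block. The median of this list was 0.03 on the log2 scale. F3, the tissue factor gene, rose from 268 ± 29.04 to 549 ± 39.2 RPM (1.04 on the log2 scale with adjusted p = 0.0055, limma), and PDGFB, a growth factor chain, rose from 101 ± 6.66 to 155 ± 18.04 RPM (0.61 on the log2 scale with adjusted p = 0.026). FN1, the fibronectin gene, fell from 47.3 ± 10.5 to 14.7 ± 3.40 RPM (-1.62 on the log2 scale with adjusted p = 0.020), and NAB2 is given above. PDGFB was called without HuCCT1/CD90+ replicate 3 but not without any other library (adjusted p up to 0.087). FN1 was called without HuCCT1/CD90− replicate 1 or HuCCT1/CD90+ replicate 1 but not without any other (adjusted p up to 0.076).

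**Figure D4:**
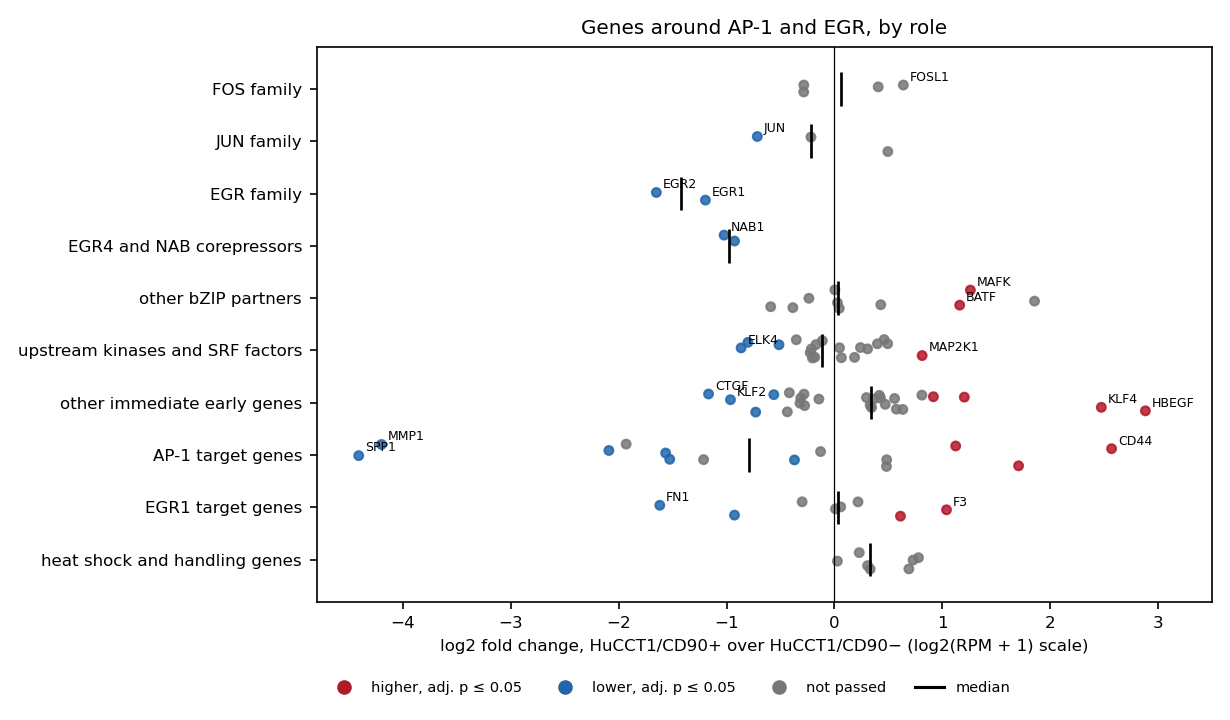
Log2 fold change between HuCCT1/CD90+ and HuCCT1/CD90− on the log2(RPM + 1) scale (horizontal axis) of each gene above the floor, by list (rows); red and blue genes passed at an adjusted p of 0.05 (limma), grey genes did not, and the black bar is the median of the list. EGR1, EGR2, NAB1 and NAB2 lie to the left of 0, while the other immediate early genes and the AP-1 target genes lie on both sides.

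The profile over the 6 libraries, each gene centred on its own mean, was compared with those of 8794 genes whose mean reached 10 RPM. The genes closest to EGR1 were SOX13, HIST1H2BN and PHF19, with root mean square differences of 0.062, 0.066 and 0.074 on the log2 scale. The closest to FOS were CCDC6, CAAP1 and RRAGA (0.033 to 0.043), and the closest to FOSL1 were BLVRB, ITGB2 and ARFGAP2 (0.069 to 0.103). None of these 9 genes is in the lists above.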

How the data were processed

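Total RNA of 3 HuCCT1/CD90− and 3 HuCCT1/CD90+ libraries was amplified by an Ion AmpliSeq transcriptome panel for human genes and read on a GeneStudio S5 Prime (Ion Torrent). The deposited RPM values of 20811 genes, each from 1 amplicon and unfiltered, were made by the authors from ampliSeqRNA plugin counts of the Torrent Suite server. The submitters' processing notes name hg19 and Transcriptome Analysis Console. No coordinates are in the table; those given are from GENCODE 29 (GRCh38) and RefSeq (GRCh38.p14). Each amplicon reads a short part of a gene, so isoforms without that part are missed.

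Values were taken to log2(RPM + 1), which understates changes of weakly expressed genes, and tested by the moderated two-sided test of limma 3.58.1 under R 4.3.3, at default settings, over all genes with Benjamini-Hochberg adjustment. A member passed at an adjusted p of at most 0.05. RPM values were whole multiples of 1 read (100% of values within 0.0006 RPM), and edgeR 4.0.16 (quasi-likelihood, TMM, filterByExpr, 12070 genes, of which 5357 passed) and DESeq2 1.42.0 (17006 genes, 5328 passed) were run on these reads. Scripts were tested on simulated data. No pair of libraries was as alike as sampling noise allows. Reads carry no molecular identifiers, so Poisson intervals cover counting error only.

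After subtraction of line means, libraries with equal numbers correlated with r = 0.21, 0.32 and 0.18 for numbers 1, 2 and 3, against -0.29 to 0.07 for other pairs, over all genes. On this check alone, libraries with equal numbers were treated as pairs in the replicate block and in differences by replicate number. All other tests, with the main limma fit among them, were unpaired.

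The members and lists were chosen with earlier results of these data known. Genes named are the members, THY1, EGR4, NAB1, NAB2, the nearest profiles and, in each list, the 2 largest rises and 2 largest falls that passed and reached a mean of 1 RPM. 1 gene that this rule names is not reported here. Genes named only to account for a count, SRF, and the marker genes without a call were chosen after their values were seen.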

Additional observations from a re-analysis of the deposited data

How the results depend on the processing

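Alternatives were offsets of 0.1 and 5 RPM, a minimum mean of 1 RPM, quantile normalization, median centring, robust eBayes with a trend, the replicate block, edgeR, DESeq2, each library left out, subtraction of the neighbour median and a fold change of 1.5 with an unadjusted p of 0.05. Over 10 members, 125 of the 148 alternative fits of a member kept direction and call. EGR2 with an offset of 0.1 RPM (-3.35) and JUN with quantile normalization (-0.68) and DESeq2 (-1.42) lost their calls. FOS with quantile normalization (-0.22) and median centring (-0.31), FOSL1 with the 1 RPM minimum, edgeR and DESeq2 (0.64 each) and JUNB with edgeR (0.47) gained one. Members called were 5 with edgeR, and those higher 1 with the 1 RPM minimum, 2 with edgeR and 1 with DESeq2. Subtraction of the neighbour median, which has no test, left FOS at -0.43, JUN at -0.45 and EGR3 at -0.048, of the opposite sign. The cause was not tested. Genes of the 6 lists that were higher numbered 21 with edgeR and 21 with DESeq2. With the replicate block 9 were lower, 3 members were called as before, and no member changed its call. The calls of NAB1, NAB2, RPS6KA5, MAPK7, CTGF, KLF4, GEM, IL11, MMP3 and, among the markers, DCN, COL1A2 and KRT19 were lost, and ATF3, MYC, NR4A3, MAP2K4 and HSPA8 gained one.

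With 1 library left out, which also leaves fewer libraries to the test, 2197 to 2932 of all genes passed (1152 to 1393 higher and 1045 to 1539 lower), 0 to 3 members (all of them lower) and 13 to 26 genes of the lists (9 to 12 higher and 4 to 14 lower). Fold changes ranged from -1.34 to -1.09 for EGR1, -1.90 to -1.47 for EGR2, -0.82 to -0.63 for JUN, -0.36 to -0.22 for FOS and -0.042 to 0.16 for EGR3, which is at the floor, so that its sign is not read. Depth limits EGR3 and EGR4, which were at the floor, and the counts of JUN and EGR2 rest on few reads.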

Other observations

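ATF3, a stress-induced basic leucine zipper factor, and IL8 and IL6, cytokine genes of the AP-1 target list, were singled out after their values were seen, because limma and the count tests differ. ATF3 had 1.14, 4.28 and 3.98 RPM in HuCCT1/CD90− and 8.68, 15.8 and 15.3 RPM in HuCCT1/CD90+, with no overlap and the opposite direction to EGR1. Its log2 fold change was 1.85 (adjusted p = 0.064, limma), with an adjusted p of 0.034 in the replicate block, 6.31e-05 with edgeR and 1.74e-07 with DESeq2. IL8 had 40.5, 105 and 123 RPM in HuCCT1/CD90− and 23.7, 15.9 and 22.5 RPM in HuCCT1/CD90+ (adjusted p = 0.066 with limma, 0.16 in the replicate block and 5.57e-06 with edgeR). IL6 had 5.59, 25.5 and 19.6 RPM in HuCCT1/CD90− and 5.36, 5.82 and 5.64 RPM in HuCCT1/CD90+ (adjusted p = 0.26 with limma, 0.30 in the replicate block and 0.0015 with edgeR). In HuCCT1/CD90− replicate 1 all 3 genes were the lowest of their line, as were 7 of the 10 members, and the share of all genes was not computed. SGK1, a kinase gene of the immediate early list, is listed at 0 in all 6 libraries.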
